A study of Rattus norvegicus with 9 samples.

Results

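The genes described here are 10 genes of elastic fibres and their microfibrils: Fbn1, Fbln1, Fbln2, Fbln5, Eln, Mfap4, Mfap5, Efemp1, Emilin1 and Lox. They were found by symbol, as features of the array whose only platform gene symbol is the name of a member. Each of the 10 had 1 such feature, so 10 of 14506 named genes and 10 of 29214 features are members. Expression was measured on 9 arrays of cultured cells from adult Sprague Dawley rats, with 3 independent samples per group. SKP-derived Schwann cells began as skin-derived precursors (SKPs), isolated from dorsal trunk skin, that had been plated in Schwann cell growth medium, passaged once and grown to confluence. Nerve Schwann cells came from digested sciatic nerve and were grown in the same medium, passaged once and collected at confluence. SKPs were spheres from dorsal trunk skin, collected after 1 or 2 passages. No genotype or drug is named as differing between the groups, and the protocols describe no sorting of the cells. Culture did differ: both Schwann cell groups grew to confluence in Schwann cell growth medium, and SKPs were collected as spheres. Culture and cell type therefore cannot be told apart in the comparisons with SKPs. The labels give dermis as the tissue of all 9 arrays and say that the SKP samples had been deposited before and were reanalysed, so a batch of these arrays and the SKP group cannot be told apart.

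Elastic fibres are made of a core of cross-linked elastin, the product of Eln, laid on a scaffold of microfibrils. Fibrillin-1, encoded by Fbn1, is the main protein of the microfibril, and microfibril-associated glycoproteins such as that encoded by Mfap5 bind to it. Fibulins (Fbln1, Fbln2, Fbln5 and Efemp1, which encodes fibulin-3) connect elastin, fibrillin and basement membrane proteins, Emilin1 sits at the interface of elastin and microfibrils, and the copper enzyme lysyl oxidase (Lox) cross-links elastin and collagen. Fibrillin microfibrils also hold latent TGF-beta through its binding proteins. In skin these fibres are made mainly by dermal fibroblasts, and in peripheral nerve they lie mainly in the connective tissue sheaths around the fibres.

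The label of each group was set against Schwann cell and fibroblast markers. Of 10 Schwann cell markers 8 were measured, and 8 of 8 were higher in both Schwann cell groups than in SKPs. Erbb3, the neuregulin receptor subunit, averaged 11.41 ± 0.87 in SKP-derived Schwann cells, 12.26 ± 0.06 in nerve Schwann cells and 4.78 ± 0.37 in SKPs (log2 level, SD, n = 3 each). Of 11 fibroblast markers, 6 were lower than in SKPs and 0 higher in each Schwann cell group. Of all genes, 22.3% were lower and 19.3% higher in SKP-derived Schwann cells, and 14.9% and 49.7% in nerve Schwann cells. Pdgfra, a growth factor receptor gene of fibroblasts, averaged 6.75 ± 1.05 in SKP-derived Schwann cells, 7.37 ± 0.89 in nerve Schwann cells and 10.98 ± 1.11 in SKPs. Dcn, the gene of the proteoglycan decorin, was not called and averaged 12.06 ± 1.32 in SKP-derived Schwann cells, 12.22 ± 1.04 in nerve Schwann cells and 13.19 ± 0.28 in SKPs. On the mean of the 11 fibroblast markers, array 2 was the highest SKP-derived array and array 3 the lowest SKP array. SKP arrays 1 and 2 lay close together, while the SKP-derived arrays were spread without a clear gap. After cyclic loess, a scaling that brings the arrays to a shared intensity curve, the mean of these markers was 7.93, 10.07 and 8.91 on the SKP-derived arrays 1 to 3, 8.68, 9.44 and 8.15 on the nerve arrays, and 11.78, 11.69 and 9.89 on the SKP arrays. As deposited, the median feature lay at 6.33 to 6.44 on the SKP-derived arrays, 6.82 to 6.87 on the nerve arrays and 6.20 to 6.27 on the SKP arrays, so values after cyclic loess are given beside calls they change.

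Promoter sequence of RefSeq (assembly GRCr8) was matched for 5 of the 10 genes, Fbn1, Fbln2, Fbln5, Mfap5 and Efemp1. The stretches shown are those of Efemp1, a gene lower in both Schwann cell groups, and of Mfap5 and Fbln5, which were lower in neither. As described below, Mfap5 was called higher in nerve Schwann cells only, as deposited, and Fbln5 was not called. Each stretch is the part of the promoter window that lies before the annotated span of the gene: chr14:106811614-106811768 on the plus strand for Efemp1, chr4:157399669-157399918 on the plus strand for Mfap5 and chr6:126742848-126742956 on the minus strand for Fbln5. Capitals mark matches, on either strand, to TATAAA (a core promoter box), TGANTCA (the AP-1 motif), CATTCC (the TEAD motif), CAGAC (the SMAD box) and CCGCCC (the GC box). No 2 matches overlap in these stretches.
Efemp1: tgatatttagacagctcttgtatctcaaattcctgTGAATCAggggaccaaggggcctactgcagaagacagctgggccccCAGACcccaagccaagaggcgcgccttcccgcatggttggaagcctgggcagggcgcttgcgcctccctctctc
Mfap5: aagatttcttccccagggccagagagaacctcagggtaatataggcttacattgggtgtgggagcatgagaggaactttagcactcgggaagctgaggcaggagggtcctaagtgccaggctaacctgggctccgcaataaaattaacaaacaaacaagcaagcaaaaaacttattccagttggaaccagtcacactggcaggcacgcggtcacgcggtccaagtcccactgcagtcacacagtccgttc
Fbln5: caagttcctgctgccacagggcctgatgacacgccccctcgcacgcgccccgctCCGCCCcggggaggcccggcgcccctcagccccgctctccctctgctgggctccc
Over the 250 bases before the start, Efemp1 held 1 match to TGANTCA and 4 to CAGAC, while Mfap5 held 0 of either. Fbn1 held 1 match to CAGAC, Fbln5 held 2 and Fbln2 held 0. TGANTCA occurred in 6.34% and CAGAC in 42.9% of the 33469 rat promoters of the same length, and CCGCCC, with 3 matches in Fbln2, 1 in Fbln5 and 1 in Efemp1, occurred in 30.5%. The letters TATAAA and CATTCC, found in 12.9% and 12.1% of promoters, had 0 matches in any of the 5 windows. The share of G and C in the window was 61.2% for Efemp1, 51.6% for Mfap5, 63.2% for Fbln5, 71.2% for Fbn1 and 64.0% for Fbln2. Bases before the annotated gene span numbered 250 for Mfap5, 155 for Efemp1, 109 for Fbln5, 55 for Fbln2 and 0 for Fbn1. Only the TGANTCA match of Efemp1, 1 of its CAGAC matches and the CCGCCC match of Fbln5 lay before that span. All matches describe the letters of the windows and are not evidence of binding.

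Compared with SKPs, both Schwann cell groups had lower transcript levels of fibrillin-1, 3 of the 4 fibulins and Emilin1. The same 5 genes, Fbn1, Fbln1, Fbln2, Efemp1 and Emilin1, were called lower in SKP-derived and in nerve Schwann cells, where a call is a limma adjusted p under 0.05 over all 14506 genes. The call of Fbln2 in SKP-derived Schwann cells (adjusted p = 0.0433 by limma) ended after cyclic loess and without any of 7 of the 9 arrays, and the other calls did not. Elastin and lysyl oxidase were not called in either comparison, and Fbln5, Mfap4 and Mfap5 did not share the lower level. In these bulk cultures, fewer cells of a type and less RNA per cell cannot be told apart. Both comparisons use the same 3 SKP arrays, so their values stand side by side and do not support each other.

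**Figure D1:**
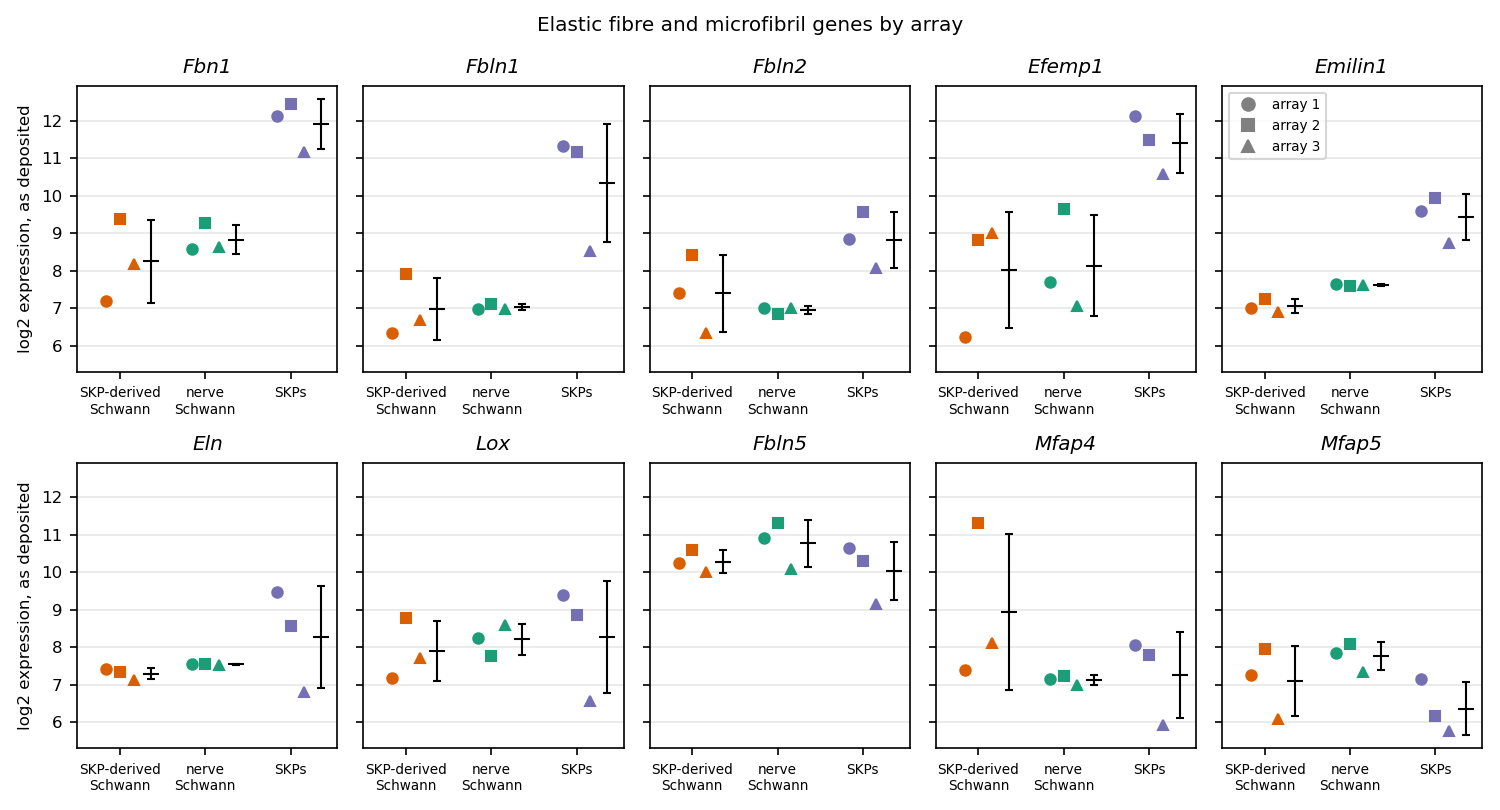
Log2 expression as deposited (y axis) of the 10 genes on each array, with circles, squares and triangles for arrays 1, 2 and 3 of a group and the black bar for the group mean ± SD (n = 3). The top row holds the 5 genes that are lower in both Schwann cell groups than in SKPs, and the bottom row the other 5. Array 3 is the lowest SKP array for all 10 genes, and Mfap4 reaches 11.32 on SKP-derived array 2 alone.

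In SKP-derived Schwann cells, 5 of the 10 genes were lower than in SKPs and 0 were higher (limma adjusted p under 0.05), where 22.3% of all genes were called lower and 19.3% higher. The median difference over the 10 genes was -1.20 on the log2 scale, against -0.01 over all 14506 genes. In nerve Schwann cells 5 of 10 were lower and 1 was higher, against 14.9% and 49.7% of all genes, and the median difference was -1.27 against 0.46 over all genes. Genes called lower in both comparisons made up 13.5% of all genes, and calls in either direction 41.6% in SKP-derived and 64.6% in nerve Schwann cells. By range, 4 of 10 lay below all SKP arrays in SKP-derived Schwann cells (25.8% of all genes) and 0 above (22.1%), and in nerve Schwann cells 5 lay below (17.8%) and 1 above (55.8%). After cyclic loess, 4 of 10 were lower in SKP-derived Schwann cells (23.9% of all genes) and 5 of 10 in nerve Schwann cells (25.6%), and 0 were higher in either, where 18.6% and 22.4% of all genes were.

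Fbn1 encodes the main protein of the microfibril. Its log2 level was 7.18, 9.37 and 8.19 in SKP-derived Schwann cells, 8.57, 9.29 and 8.64 in nerve Schwann cells and 12.13, 12.45 and 11.18 in SKPs. Every Schwann cell array lay below every SKP array, and the Schwann cell groups overlapped each other. Fbn1 was 12.8-fold lower in SKP-derived Schwann cells than in SKPs (log2 difference -3.67, SE 0.52, limma adjusted p = 0.000466) and 8.52-fold lower in nerve Schwann cells (-3.09, SE 0.52, limma adjusted p = 0.000730).

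Emilin1 encodes a glycoprotein that lies between elastin and microfibrils. The gene had log2 levels of 7.02, 7.26 and 6.89 in SKP-derived Schwann cells, 7.66, 7.60 and 7.62 in nerve Schwann cells and 9.60, 9.94 and 8.74 in SKPs. Both Schwann cell groups lay below all SKP arrays. SKP-derived arrays lay below nerve arrays as deposited, but overlapped them after cyclic loess, where SKP-derived array 2 stood at 7.50 and nerve array 3 at 7.38. Emilin1 was 5.18-fold lower in SKP-derived Schwann cells than in SKPs (log2 difference -2.37, SE 0.26, limma adjusted p = 0.000127) and 3.49-fold lower in nerve Schwann cells (-1.80, SE 0.26, limma adjusted p = 0.000370).

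The 4 fibulin genes fell into different patterns. Fbln1, whose product fibulin-1 is found in elastic fibres and basement membranes, had log2 levels of 6.35, 7.91 and 6.67 in SKP-derived Schwann cells, 6.98, 7.12 and 6.98 in nerve Schwann cells and 11.34, 11.16 and 8.53 in SKPs. The nerve arrays differed by 0.14 from lowest to highest and lay near their median feature, at 6.82 to 6.87 as deposited. The SKP arrays differed by 2.81, with SKP array 3 far below the other SKP arrays but still above every Schwann cell array. The difference from SKPs was -3.36 in SKP-derived Schwann cells (SE 0.68, adjusted p = 0.00348 by limma) and -3.31 in nerve Schwann cells (SE 0.68, adjusted p = 0.00216 by limma). Without SKP array 3 these differences were -4.27 and -4.22, and without SKP array 1 they were -2.87 and -2.82.

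Efemp1, which encodes fibulin-3, had log2 levels of 6.24, 8.81 and 9.01 in SKP-derived Schwann cells, 7.71, 9.64 and 7.06 in nerve Schwann cells and 12.14, 11.50 and 10.57 in SKPs. Both Schwann cell groups lay below the SKPs, yet within each of them the arrays spread over 2.77 and 2.58 log2 units. The difference from SKPs was -3.38 in SKP-derived Schwann cells (SE 0.83, adjusted p = 0.00979 by limma) and -3.26 in nerve Schwann cells (SE 0.83, adjusted p = 0.00692 by limma).

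Fbln2 encodes fibulin-2, which binds fibrillin-1 and basement membrane proteins. Log2 levels of Fbln2 were 7.41, 8.42 and 6.35 in SKP-derived Schwann cells, 7.02, 6.84 and 7.01 in nerve Schwann cells and 8.84, 9.56 and 8.06 in SKPs. Nerve Schwann cells lay below all SKP arrays (-1.86, SE 0.49, limma adjusted p = 0.00847), whereas SKP-derived array 2 lay above SKP array 3. The lower level in SKP-derived Schwann cells was close to the threshold (-1.42, SE 0.49, limma adjusted p = 0.0433). It was not called after cyclic loess (-1.39, limma adjusted p = 0.0625) or without any of 7 of the 9 arrays: nerve arrays 1 to 3, SKP-derived arrays 1 and 3, and SKP arrays 1 and 2 (differences of -1.43 to -0.90, limma adjusted p up to 0.143).

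Fbln5, whose product fibulin-5 is needed for elastic fibre assembly in mice, did not share the pattern of the other fibulins. Its log2 level was 10.25, 10.60 and 10.01 in SKP-derived Schwann cells, 10.91, 11.32 and 10.09 in nerve Schwann cells and 10.65, 10.29 and 9.16 in SKPs. All 3 groups overlapped. The difference from SKPs was 0.25 in SKP-derived Schwann cells (95% interval -0.66 to 1.16, limma adjusted p = 0.645) and 0.74 in nerve Schwann cells (95% interval -0.17 to 1.65, limma adjusted p = 0.137). The median of all genes in the comparison of nerve Schwann cells was 0.46. Without nerve array 3 it was called higher in nerve Schwann cells (1.08, limma adjusted p = 0.0474), and without SKP array 3 the difference of SKP-derived Schwann cells was -0.18.

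**Figure D2:**
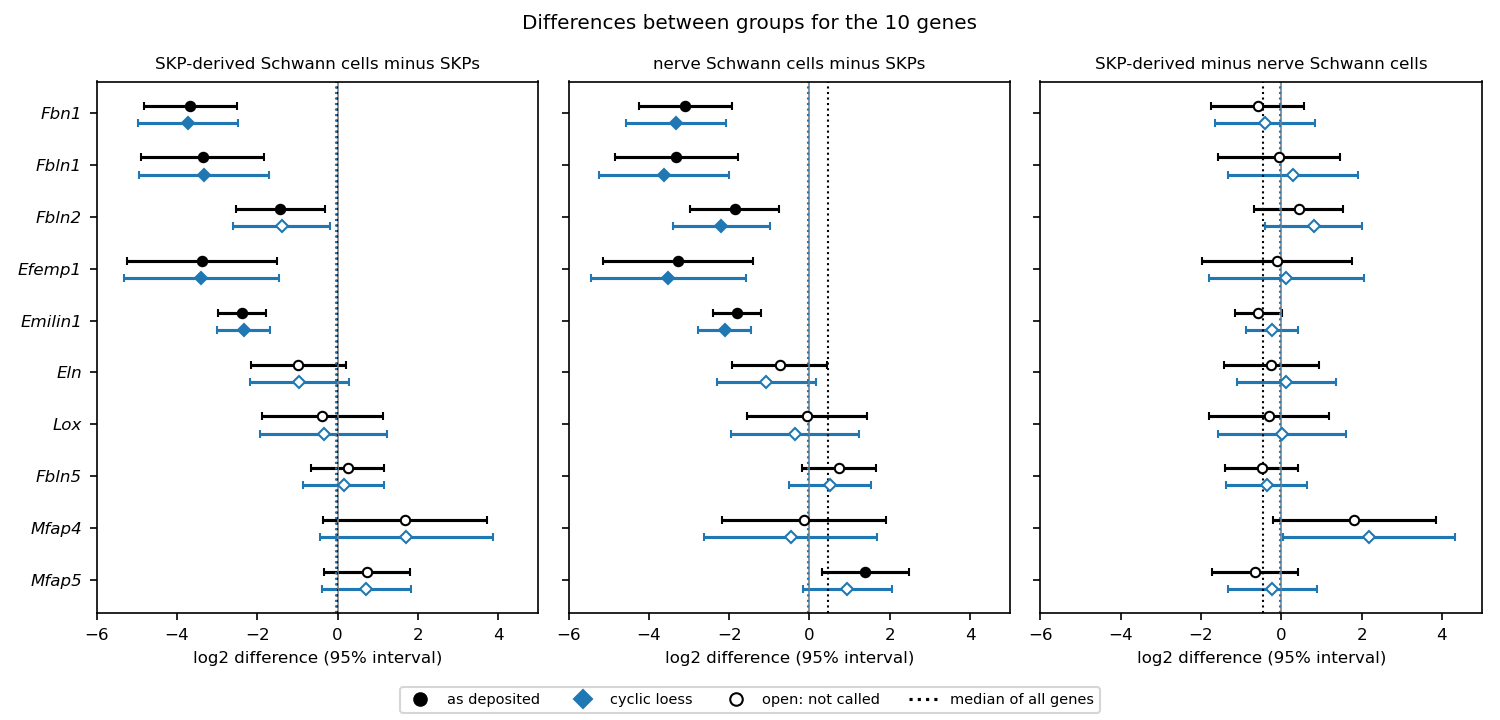
Log2 differences (x axis, with 95% intervals) of the 10 genes for the 3 comparisons, as deposited (circles) and after cyclic loess (diamonds), filled where limma's adjusted p was under 0.05, with dotted lines at the median of all genes. Fbn1, Fbln1, Efemp1 and Emilin1 lie left of 0 with filled symbols in both comparisons with SKPs under either scaling, and all symbols are open between the Schwann cell groups.

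Eln encodes tropoelastin, the monomer of elastin. Log2 levels of Eln were 7.42, 7.33 and 7.13 in SKP-derived Schwann cells, 7.55, 7.55 and 7.52 in nerve Schwann cells and 9.47, 8.57 and 6.79 in SKPs. SKP arrays 1 and 2 lay above all 6 Schwann cell arrays and SKP array 3 lay below them. The difference was -0.98 in SKP-derived Schwann cells (95% interval -2.16 to 0.20, limma adjusted p = 0.164) and -0.74 in nerve Schwann cells (95% interval -1.92 to 0.45, limma adjusted p = 0.244). Without SKP array 3 Eln was called lower in both (-1.72, limma adjusted p = 0.000606, and -1.48, limma adjusted p = 0.0009). Without SKP array 1 the differences were -0.38 and -0.14, and Eln was called in neither.

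Lox had log2 levels of 7.19, 8.77 and 7.72 in SKP-derived Schwann cells, 8.24, 7.78 and 8.60 in nerve Schwann cells and 9.38, 8.86 and 6.57 in SKPs. As for Eln, SKP array 3 was below every Schwann cell array while SKP arrays 1 and 2 were above them all. The difference was -0.38 in SKP-derived Schwann cells (95% interval -1.88 to 1.12, limma adjusted p = 0.676) and -0.06 in nerve Schwann cells (95% interval -1.56 to 1.44, limma adjusted p = 0.939). Without SKP array 3, SKP-derived Schwann cells were called lower (-1.23, limma adjusted p = 0.0470), and without SKP array 1 their difference was 0.18. In nerve Schwann cells the difference was -0.92 without SKP array 3 and 0.49 without SKP array 1.

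Mfap4, which encodes a microfibril-associated protein of the fibrinogen-related family, was set apart by 1 array. Its log2 level was 7.39, 11.32 and 8.11 in SKP-derived Schwann cells, 7.14, 7.24 and 6.98 in nerve Schwann cells and 8.05, 7.79 and 5.93 in SKPs. The value of SKP-derived array 2 was the highest of all 9 by more than 3 log2 units. The difference of SKP-derived Schwann cells was 1.68 from SKPs (SE 0.91, adjusted p = 0.166 by limma) and 1.82 from nerve Schwann cells (SE 0.91, adjusted p = 0.128 by limma), and neither was called. Without SKP-derived array 2 these differences were 0.49 and 0.63.

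Mfap5, which encodes the microfibril-associated glycoprotein MAGP-2, was the only member called higher than in SKPs. Its log2 level was 7.26, 7.95 and 6.09 in SKP-derived Schwann cells, 7.84, 8.09 and 7.35 in nerve Schwann cells and 7.16, 6.17 and 5.77 in SKPs. All nerve arrays lay above all SKP arrays, and the SKP-derived arrays overlapped both groups. The difference of nerve Schwann cells from SKPs was 1.40 (SE 0.48, adjusted p = 0.0274 by limma), which exceeded the median of all genes, 0.46. It was not called after cyclic loess (0.94, limma adjusted p = 0.141), nor without nerve array 1 or 2 or SKP array 2 or 3 (1.10 to 1.36, limma adjusted p up to 0.0849). SKP-derived Schwann cells differed from SKPs by 0.74 (95% interval -0.34 to 1.81, limma adjusted p = 0.245), and by 1.24 without SKP-derived array 3, where the gene was called higher (limma adjusted p = 0.0455).

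Between the Schwann cell groups 0 of the 10 genes were called higher and 0 lower in SKP-derived than in nerve Schwann cells, where 1.33% and 42.3% of all genes were called as deposited and 0.731% and 0.6% after cyclic loess. At an unadjusted p under 0.05, 0 of the 10 passed as deposited and 1, Mfap4, passed after cyclic loess (2.18, 95% interval 0.03 to 4.33). By range as deposited, Mfap4 lay above (3.19% of all genes) and Eln and Emilin1 lay below (59.1%). Calls in either direction made up 43.7% of all genes. Emilin1 differed by -0.57 (95% interval -1.16 to 0.03, limma adjusted p = 0.106) and Fbn1 by -0.58 (95% interval -1.74 to 0.58, limma adjusted p = 0.372), near the median of all genes of -0.45. The difference was -0.23 for Emilin1 and -0.40 for Fbn1 after cyclic loess. Fbln1 differed by -0.05, Efemp1 by -0.11 and Eln by -0.25, with values of the other sign after cyclic loess (0.28, 0.12 and 0.12). The interval of Efemp1, whose arrays spread widely, ran from -1.98 to 1.76.

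Emilin1 was called lower in SKP-derived than in nerve Schwann cells when SKP array 3 was left out (-0.57, limma adjusted p = 0.0130) and in a fit of these groups alone (limma adjusted p = 0.0111). With SKP-derived array 2 and SKP array 3 both left out, a setting chosen after the data were seen, 7 of 10 were lower than in SKPs in SKP-derived Schwann cells (22.9% of all genes) and 8 of 10 in nerve Schwann cells (17% of all genes). Between the Schwann cell groups 3 of 10 were then lower (47.7% of all genes) and 1 was higher (2.25%) in SKP-derived than in nerve Schwann cells, as deposited. These arrays are the highest of their group for 8 of the 10 genes and the lowest for 10 of the 10, so leaving them out moves the group means in the direction of the lower calls.

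The spread of the members within groups differed by gene. The median SD of the 10 genes was 0.88 in SKP-derived Schwann cells, 0.25 in nerve Schwann cells and 0.78 in SKPs, against medians of 0.23, 0.11 and 0.23 over all genes. The SD was above the median of all genes for 8 of the 10 in SKP-derived Schwann cells, 6 in nerve Schwann cells and 10 in SKPs, and Eln and Emilin1 were below it in both Schwann cell groups. In nerve Schwann cells, Fbln1, Fbln2 and Mfap4 (means 7.03, 6.96 and 7.12) lay near the median feature of the arrays. SKP array 3 was the lowest SKP array for 10 of the 10 genes, as it was for 35.5% of all genes. SKP-derived array 2 was the highest array of its group for 8 of 10 (9 after cyclic loess), where 38.4% of all genes (37.2% after cyclic loess) were highest there. Eln was the gene highest on SKP-derived array 1, and Efemp1 was highest on array 3 as deposited.

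Most fibroblast markers moved with the members across the arrays of a group. Among these 11 markers, 9 were highest on SKP-derived array 2, 9 were highest on nerve array 2 and 11 were lowest on SKP array 3, all after cyclic loess. The other 2, Col1a1 and Col1a2, were lowest on SKP-derived array 2 and on nerve array 2. Col1a1 stood at 11.84, 10.90 and 11.15 on SKP-derived arrays 1 to 3 after cyclic loess. The mean of the 10 members after cyclic loess was 7.49, 8.97 and 7.64 on SKP-derived arrays 1 to 3, 7.81, 8.05 and 7.55 on the nerve arrays and 9.99, 9.78 and 8.20 on the SKP arrays. Lum, which encodes the collagen-binding proteoglycan lumican, had log2 levels of 7.03, 11.72 and 9.54 in SKP-derived Schwann cells, 7.91, 10.41 and 5.97 in nerve Schwann cells and 11.12, 10.88 and 8.53 in SKPs. The mean of the smooth muscle and pericyte markers (9 measured) was 6.78 to 7.19 in SKP-derived Schwann cells, 6.92 to 7.11 in nerve Schwann cells and 6.98 to 7.18 in SKPs. Single markers of this list moved in opposite directions. After cyclic loess, Tagln was called higher than in SKPs in SKP-derived and nerve Schwann cells (1.47 and 1.02). Pdgfrb (-1.55 and -1.01) and Myh11 (-0.78 and -0.79) were called lower. On array 3 of each Schwann cell group, 7 of the 9 markers were lowest. The mean of the Schwann cell markers was lowest on SKP-derived array 2 within that group, at 11.26 against 12.09 and 11.61. By gene, 5 of the 8 were lowest there and 1 was highest there. Macrophage markers (9 measured) were highest on SKP array 1, at 8.36, against 6.54 and 5.85 on SKP arrays 2 and 3. The part of these cell types in the levels of the 10 genes was not tested.

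**Figure D3:**
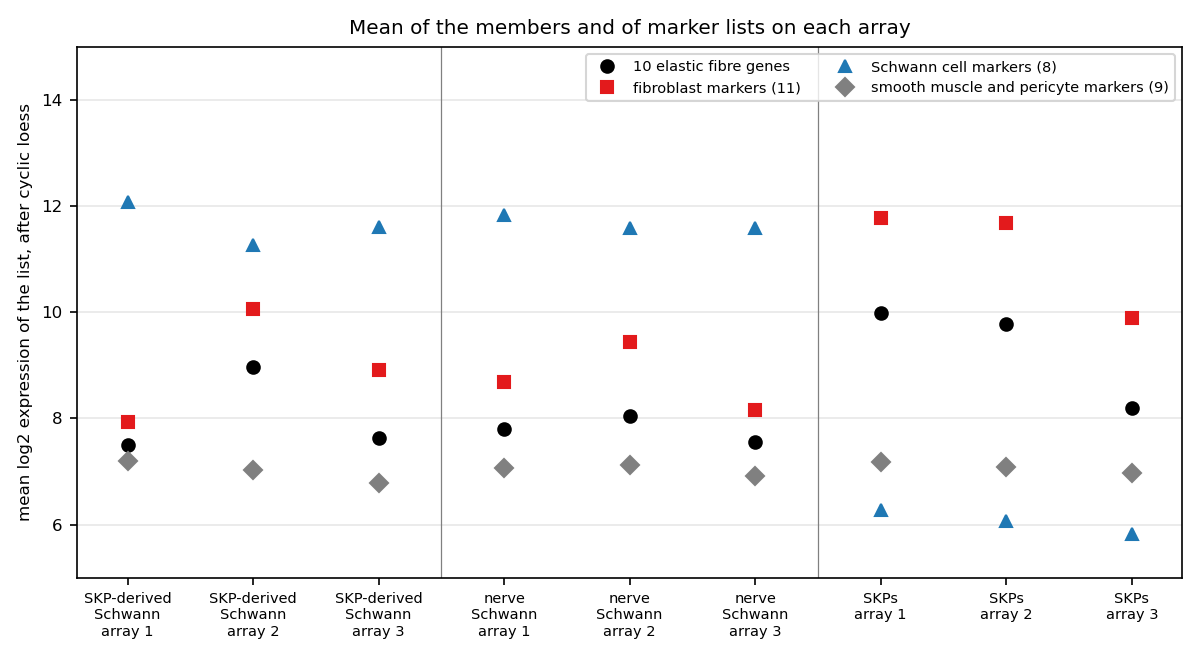
Mean log2 expression after cyclic loess (y axis) of the 10 elastic fibre genes and of 3 marker lists on each of the 9 arrays. The means of the members and of the fibroblast markers are both highest on array 2 and lowest on array 1 among the SKP-derived arrays. Both are lowest on array 3 among the SKP arrays. The mean of the smooth muscle and pericyte markers, whose single genes moved in opposite directions, stays between 6.78 and 7.19 on all arrays.

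Likeness of profiles was measured as the root mean square difference of log2 values as deposited over the 9 arrays, each gene centred on its own mean. Shifts between arrays therefore enter it, and shared regulation was not tested. Among the members, Fbln5 and Mfap5 were the most alike (0.47), followed by Eln and Lox (0.55) and by Fbn1 and Fbln1 (0.55), and Mfap5 and Efemp1 were the least alike (2.33). Outside the members, the gene nearest to Fbn1 was Ptgfr, a prostaglandin receptor gene (0.30), the gene nearest to Eln was Brinp1 (0.15) and the gene nearest to Emilin1 was Aldh1l1, a folate enzyme gene (0.17). Those nearest to the mean profile of the 10 members were Prss35 (0.24), Fstl1 (0.25), Septin6 (0.26), Cacna1g (0.29) and Chrna1 (0.30). The gene nearest to Mfap4 was Frzb, which encodes a secreted Wnt antagonist (0.54). For the other genes the nearest were Sertad4 for Fbln1 (0.33), Nppb for Fbln2 (0.35), Hs3st1 for Fbln5 (0.25), Or1o1 for Mfap5 (0.29), Lrrn4cl for Efemp1 (0.48) and Lxn for Lox (0.38). Or1o1 had low levels, with group means of 3.24 in SKPs, 3.79 in SKP-derived and 4.74 in nerve Schwann cells.

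Other genes of elastic fibre assembly were described by lists of the same pathway. The counts of each list stand against the shares of all genes. In SKP-derived Schwann cells 22.3% of all genes were called lower than in SKPs and 19.3% higher (median -0.01). In nerve Schwann cells 14.9% were called lower and 49.7% higher (median 0.46). Among structural relatives of the members, 6 of 15 listed genes were measured. In SKP-derived Schwann cells 2 were higher and 1 lower than in SKPs (median 0.40), and nerve Schwann cells had 3 higher and 2 lower (median 0.68). Efemp2, which encodes fibulin-4 and is required for elastic fibres in mice, averaged 8.73 ± 0.11 in SKP-derived Schwann cells, 9.31 ± 0.35 in nerve Schwann cells and 10.93 ± 0.40 in SKPs (differences -2.20, limma adjusted p = 9.15e-05, and -1.62, limma adjusted p = 0.000323). Fbn2, the gene of fibrillin-2, was higher in nerve Schwann cells than in SKPs as deposited (1.42, limma adjusted p = 0.0129) and not called after cyclic loess (0.74, limma adjusted p = 0.164). Mfap3l was lower in nerve Schwann cells (-1.43) and Emilin3 was higher in both Schwann cell groups (0.65 and 1.16).

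Genes for cross-linking and processing of precursor proteins were lower or not called. Of 13 measured, 8 were lower and 0 higher in SKP-derived Schwann cells than in SKPs (median -0.79), and 6 were lower and 0 higher in nerve Schwann cells (median -0.59, with 7 lower after cyclic loess). Pcolce, an enhancer of procollagen processing, differed from SKPs by -2.94 in SKP-derived Schwann cells and by -3.27 in nerve Schwann cells (limma adjusted p = 3.42e-05 and 1.74e-05). Fkbp14, a prolyl isomerase of the endoplasmic reticulum, differed by -2.48 and -2.06, and the protease Furin by -1.52 and -0.81. The 4 Lox-like genes, named as relatives of Lox after their values were seen, differed in pattern. Loxl3 was lower in both groups (-1.88 and -1.64), Loxl1 and Loxl4 were lower in SKP-derived Schwann cells (-1.16 and -0.99) and not called in nerve Schwann cells (-0.16 and -0.57, with Loxl4 called at -0.99 after cyclic loess), and Loxl2 was called in neither (-0.09 and -0.16). Loxl1, which is tied to elastin cross-linking in mice, was lower in SKP-derived than in nerve Schwann cells as deposited (9.94 ± 0.47 against 10.94 ± 0.17, limma adjusted p = 0.0114) and not called after cyclic loess (-0.89, limma adjusted p = 0.101).

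The latent TGF-beta list, whose binding proteins attach to fibrillin microfibrils, had members on both sides. Of 11 measured, 5 were lower and 3 higher than in SKPs in SKP-derived Schwann cells (median -1.84) and also in nerve Schwann cells (median -0.94). Ltbp1, a latent TGF-beta binding protein gene, differed from SKPs by -5.15 in SKP-derived Schwann cells (limma adjusted p = 4.03e-06) and by -4.57 in nerve Schwann cells (limma adjusted p = 6.24e-06). Ltbp4, of the same family and tied to elastic fibres in mice, differed the other way, at 8.46 ± 0.55 in SKP-derived Schwann cells, 9.36 ± 0.34 in nerve Schwann cells and 6.76 ± 0.08 in SKPs (1.70, limma adjusted p = 0.000859, and 2.60, limma adjusted p = 5.93e-05). Tgfbr3, the gene of the TGF-beta co-receptor betaglycan, was higher too (3.23 and 3.92), and Ltbp2 was lower (-4.15 and -3.96).

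**Figure D4:**
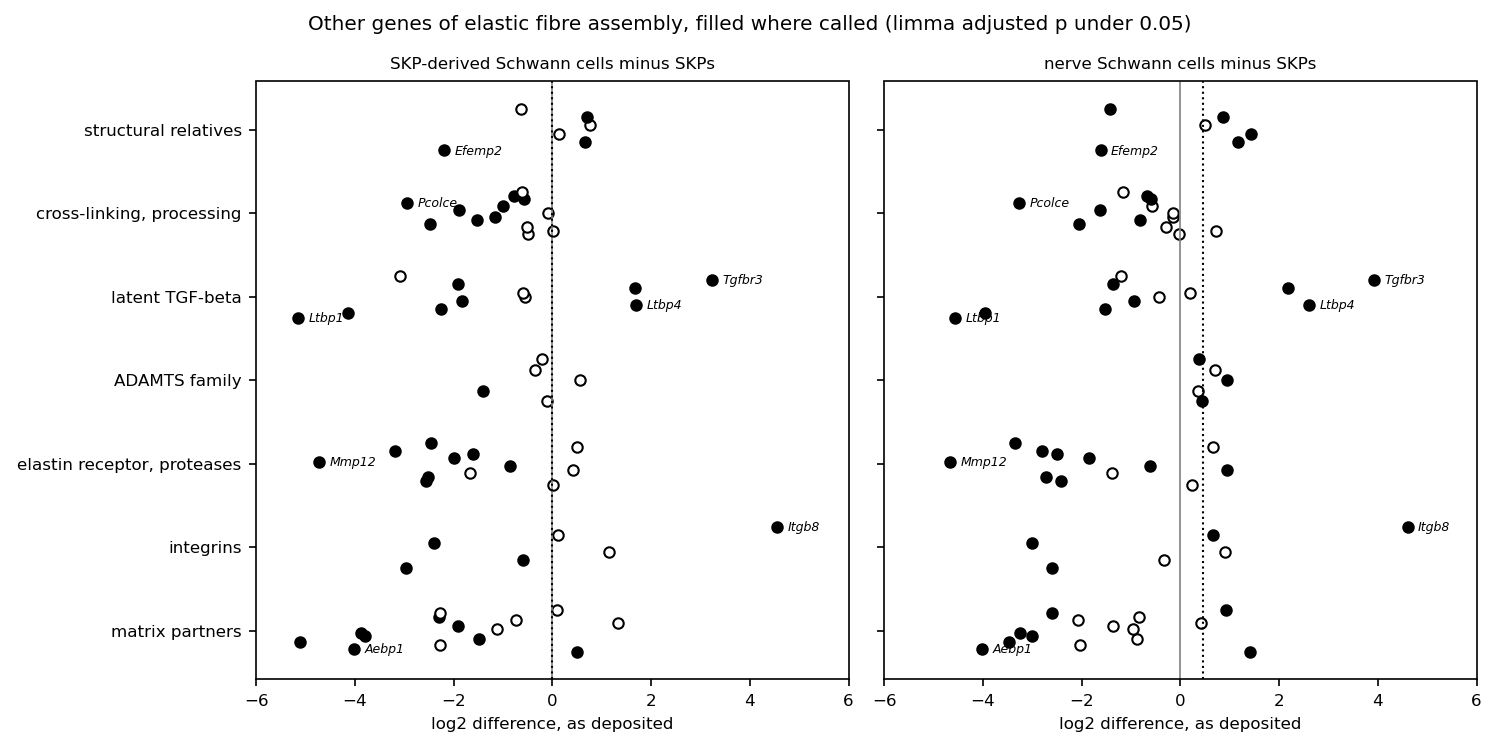
Log2 differences as deposited (x axis) of the other genes of elastic fibre assembly by list, for SKP-derived Schwann cells minus SKPs (left) and nerve Schwann cells minus SKPs (right), filled where called and with a dotted line at the median of all genes. Proteases and cross-linking genes lie mostly left of 0, and Itgb8, Tgfbr3 and Ltbp4 lie to the right in both panels.

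The next list holds elastolytic proteases, elastin receptor subunits and a protease inhibitor. Of its 12 measured genes, 8 were lower and 0 higher in SKP-derived Schwann cells (median -1.84). In nerve Schwann cells 8 were lower and 1 higher (median -2.14, with 9 lower and 0 higher after cyclic loess). Among the receptor subunits, Glb1 was lower in both groups (-0.87 and -0.63). Neu1 (0.49 and 0.66) and Ctsa (0.02 and 0.23) were called in neither. Mmp12, the macrophage elastase gene, averaged 5.15 ± 0.85 in SKP-derived Schwann cells, 5.22 ± 0.12 in nerve Schwann cells and 9.88 ± 0.29 in SKPs (differences -4.73, limma adjusted p = 1.48e-05, and -4.66, limma adjusted p = 1.52e-05). Mmp9 differed by -3.20 and -2.81, Serpine2, a protease inhibitor gene placed in the list, by -2.45 and -3.36, and the cathepsin gene Ctsl by -2.52 and -2.73.

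Of 6 integrin genes measured, 3 were lower and 1 higher in SKP-derived Schwann cells, while nerve Schwann cells had 2 lower and 2 higher (medians -0.24 and 0.16, with 3 lower and 1 higher in nerve Schwann cells after cyclic loess). Itga5, a fibronectin receptor subunit, differed by -2.97 and -2.59 and Itgb5 by -2.39 and -3.00, while Itgb8, which pairs with the alpha-v subunit and can activate latent TGF-beta, differed by 4.55 and 4.60. Itgb6 was higher in nerve Schwann cells (0.66), a call that ended after cyclic loess (-0.08, limma adjusted p = 0.601).

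Among 14 matrix partners measured, 7 were lower and 1 higher in SKP-derived Schwann cells (median -2.09), and 5 were lower and 2 higher in nerve Schwann cells (median -1.70, with 6 lower and 1 higher after cyclic loess). Aebp1, a collagen-binding matrix protein gene, differed by -4.02 in both, the secreted chaperone gene Clu by -5.12 and -3.48, the proteoglycan gene Cspg4 by -3.88 and -3.26, and Col8a1, a short-chain collagen gene, by -3.79 and -3.02. Of 5 measured ADAMTS family genes, 1 was lower in SKP-derived Schwann cells and 0 higher (median -0.21), while nerve Schwann cells had 3 higher and 0 lower (median 0.43, 0 called after cyclic loess). Adamts2, which trims procollagen, was lower in SKP-derived than in nerve Schwann cells both as deposited (-1.76, limma adjusted p = 0.00208) and after cyclic loess (-1.52, limma adjusted p = 0.0264). It averaged 8.09 ± 0.40 in SKP-derived Schwann cells and 9.85 ± 0.29 in nerve Schwann cells (SD, n = 3 each). Adamtsl4 (-1.06) and Adamtsl5 (-0.58) were lower in SKP-derived than in nerve Schwann cells as deposited and not called after cyclic loess (limma adjusted p = 0.281 and 0.295), and Adamtsl3 was higher in nerve Schwann cells than in SKPs as deposited (0.94) and not called after cyclic loess (limma adjusted p = 0.175).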

How the data were processed

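The authors deposited log2 expression values. The submitters' processing notes name RMA and Expression Console. Versions, the genome build and any joint normalisation of the 9 arrays remain not given in the sources used here. Depth does not apply to arrays, and having 3 arrays per group limits precision. Gene names of features come from the annotation table of the platform (15310 with 1 symbol, 323 with several, 13581 with none). The feature with the highest mean stood for a gene. Groups came from the sample titles, and p-values measure the spread between these cultures.

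The test was that of limma 3.58.1 under R 4.3.3 (lmFit on the group means of all 9 arrays, eBayes), with Benjamini-Hochberg adjustment over 14506 genes and calls at an adjusted p under 0.05. The fit was tested on simulated data. Alternatives were 3 other scalings, a filter on low values, other feature rules, variances, samples and thresholds, a replicate block, and leaving out each array.

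The members, the lists, the tests and the rule for named genes (all members, up to 4 called genes with the largest differences per list, and the genes of nearest profile) were chosen with earlier results of these data known. A planned search of protein sequences was not run.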

Additional observations from a re-analysis of the deposited data

How the results depend on the processing

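The calls of Fbn1, Fbln1, Efemp1 and Emilin1 as lower in both Schwann cell groups than in SKPs held under every alternative run that tested them, single arrays left out included. Deviations from group means correlated at -0.12 to 0.29 between same-numbered arrays of different groups and at -0.27 to 0.18 between arrays of other numbers. Whether the replicate numbers pair the arrays was not tested. The replicate block gave 2 members higher in nerve Schwann cells than in SKPs, against 1, by adding Fbln5. The lower level of Fbln2 in SKP-derived Schwann cells was not called after cyclic loess (adjusted p = 0.0625), quantile normalisation (0.0599) or in a fit of SKP-derived Schwann cells and SKPs alone (0.0874), by limma.

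In nerve Schwann cells, members called above SKPs numbered 0 after median centring, cyclic loess, quantile normalisation, the filter on low values or at an adjusted p under 0.01, and 0 to 2 without single arrays. Members called higher in SKP-derived Schwann cells than in SKPs numbered 0 to 1 without single arrays, and members called lower 4 to 7. Without single arrays, 4865 to 5939 of 14506 genes were called in either direction in that comparison. Between nerve Schwann cells and SKPs, 8016 to 9783 genes were called without single arrays. Members lower in SKP-derived than in nerve Schwann cells numbered 1 in a fit of these groups alone and 0 to 1 without single arrays. Genes called between the Schwann cell groups numbered 6333, against 716 after median centring, 193 after cyclic loess, 240 after quantile normalisation, 600 with the filter, 2818 at an adjusted p under 0.01 and 3755 to 7270 without single arrays. Genes called between nerve Schwann cells and SKPs numbered 9369, against 4203 with the filter, and those between SKP-derived Schwann cells and SKPs 6038, against 3855 at an adjusted p under 0.01. The filter tests fewer genes, and Mfap5, which lies below the median level, was not tested there; the cause of the other changes was not tested.

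Between the Schwann cell groups the sign of small differences turned. After median centring these were 0.42 for Fbln1, 0.22 for Eln, 0.36 for Efemp1 and 0.16 for Lox. After cyclic loess they were 0.28, 0.12, 0.12 and 0.017, and after quantile normalisation 0.43 for Fbln1, 0.14 for Eln and 0.19 for Efemp1. Without single arrays they ran from -0.52 to 0.26 for Fbln1, -0.076 to 0.96 for Fbln2, -0.65 to 0.78 for Efemp1 and -0.75 to 0.039 for Lox. From SKPs, without single arrays, SKP-derived Schwann cells differed by -1.23 to 0.18 for Lox and -0.18 to 0.56 for Fbln5, and nerve Schwann cells by -0.92 to 0.49 for Lox and -0.80 to 0.26 for Mfap4.

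Without SKP-derived array 2 and SKP array 3 together, SKP-derived Schwann cells differed from SKPs by -0.34 for Fbln5 and -0.17 for Mfap4 and from nerve Schwann cells by -0.076 for Fbln2. In nerve Schwann cells, members called below SKPs then numbered 8 (17% of all genes), and between the Schwann cell groups 1 was higher (2.25%) and 3 lower (47.7%). These arrays were picked for the highest and the lowest fibroblast marker mean of their groups. They hold the extremes of most members, so leaving them out moves the group means in the direction of the lower calls. With all arrays kept, 5 members were already called lower than SKPs in each Schwann cell group. Members called higher then numbered 0 in SKP-derived and 1 in nerve Schwann cells.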
